A study of Rattus norvegicus with 18 samples.

Results

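The 10 genes studied here encode proteins of the classical complement cascade and its receptors: C1qa (ENSRNOG00000012807), C1qb (ENSRNOG00000012749), C1qc (ENSRNOG00000012804), C1r (ENSRNOG00000011796), C1s (ENSRNOG00000011971), C3 (ENSRNOG00000046834), Serping1 (ENSRNOG00000007457), C3ar1 (ENSRNOG00000009211), C5ar1 (ENSRNOG00000047800) and Cd55 (ENSRNOG00000003927). They were taken by gene symbol from a count table of 30735 genes, each symbol matched 1 row, and all 10 were among the 18444 genes with enough counts to be tested. RNA came from the cerebral cortex of adult Sprague Dawley rats aged 8 to 10 weeks, whose sex the sources do not state, with 6 rats in each of 3 groups and 1 library per rat. In the SAH 1d and SAH 7d groups, subarachnoid hemorrhage (SAH), a bleed into the space around the brain, was made by endovascular perforation, and cortex was taken 1 day or 7 days later. Sham rats had the same operation without the perforation. How long after it their cortex was taken is not stated, so a match in time to either SAH group is not known. All groups were anesthetized with pentobarbital for the operation, and no transgene or deletion was named for any group. The methods describe the cortex of the operated side and the labels a bilateral cortex, so the side sampled is uncertain. Each library is a whole-tissue mixture, in which more cells of a type and more RNA per cell cannot be told apart.

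The classical pathway starts when C1q, assembled from the A, B and C chains that C1qa, C1qb and C1qc encode, binds a target and activates the serine proteases C1r and C1s. C1s cleaves C4 and C2 into a convertase that splits C3, whose fragments tag the target for uptake. The anaphylatoxins C3a and C5a, split from C3 and C5, call in immune cells through C3ar1 and C5ar1. Serping1, the C1 inhibitor, blocks C1r and C1s, and Cd55, decay-accelerating factor, takes convertases apart on cell surfaces. In the brain, microglia are the main known source of C1q, astrocytes and microglia make C3, and C1q and C3 tag synapses for removal.

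The 3 C1q chain genes are consecutive protein-coding genes in the rat genome, in the order C1qb, C1qc and C1qa, and C1r lies between C1rl and C1s. RefSeq promoters of the GRCr8 build were at hand for 6 of the 10 genes. The 250 bases before the transcription start are shown for 4 of these 6 genes, 2 of the C1q chains, 1 protease and C3. All 4 are written 5′ to 3′ on the strand of the gene. The coordinates are chr5:154419934-154420183 (minus strand) for C1qa, chr5:154407828-154408077 (minus) for C1qb, chr4:159098763-159099012 (plus) for C1r and chr9:2201340-2201589 (minus) for C3. Capitals mark the matches, on either strand, to 3 motifs: the PU.1 core GAGGAA, the STAT site TTCNNNGAA and the C/EBP site TTGCNNAA.
C1qa: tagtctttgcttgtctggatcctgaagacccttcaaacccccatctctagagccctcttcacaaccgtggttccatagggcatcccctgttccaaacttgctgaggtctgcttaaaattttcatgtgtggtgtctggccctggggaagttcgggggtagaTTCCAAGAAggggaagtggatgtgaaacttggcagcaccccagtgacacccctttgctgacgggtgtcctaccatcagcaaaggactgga
C1qb: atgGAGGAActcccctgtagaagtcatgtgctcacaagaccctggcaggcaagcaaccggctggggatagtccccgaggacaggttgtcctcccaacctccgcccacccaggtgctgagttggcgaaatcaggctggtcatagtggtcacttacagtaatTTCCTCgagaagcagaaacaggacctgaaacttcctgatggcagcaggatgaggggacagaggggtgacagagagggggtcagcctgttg
C1r: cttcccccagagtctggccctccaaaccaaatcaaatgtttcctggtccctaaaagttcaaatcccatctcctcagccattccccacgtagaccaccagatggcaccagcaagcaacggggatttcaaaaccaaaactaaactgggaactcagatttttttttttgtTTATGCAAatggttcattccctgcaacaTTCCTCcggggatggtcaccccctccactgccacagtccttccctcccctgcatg
C3: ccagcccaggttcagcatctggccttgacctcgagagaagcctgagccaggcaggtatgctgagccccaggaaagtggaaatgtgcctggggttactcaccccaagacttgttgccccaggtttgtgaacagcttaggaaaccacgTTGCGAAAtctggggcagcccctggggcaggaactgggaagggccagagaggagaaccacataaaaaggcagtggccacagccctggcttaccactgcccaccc

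The PU.1 core was found 2 times in the C1qb window and 1 time in the C1r window. The C1qa window held 1 STAT site, and the C1r and C3 windows held 1 C/EBP site each. The C3ar1 and Cd55 windows, not shown, held none of the 3. Among all 33469 rat promoters of the same table, searched over the same length, 23.3% held the PU.1 core, 7.67% the STAT site and 9.22% the C/EBP site. No 2 matches overlapped. These are matches of letters and no measure of binding.

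Total counts per library ran from 27270026 to 38271014. The libraries SAH 1d-3 and SAH 7d-5 (group, then number in the count table) stood apart from the rest of their groups, with median rank correlations to their own group of 0.945 and 0.896. SAH 7d-5 had the highest value of its group for 10 of 10 complement genes, from 1.15 times (Cd55) to 42.9 times (C5ar1) the median of the other 5. SAH 1d-3 was highest for 4 of 10. Over all 10 genes it ran from 0.896 times (C1qa) to 12.6 times (Cd55) the median of the other 5. The gene tests of the members and the ratio tests below were therefore also made without these 2 libraries. The plot of the 10 genes by library shows both.

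**Figure D1:**
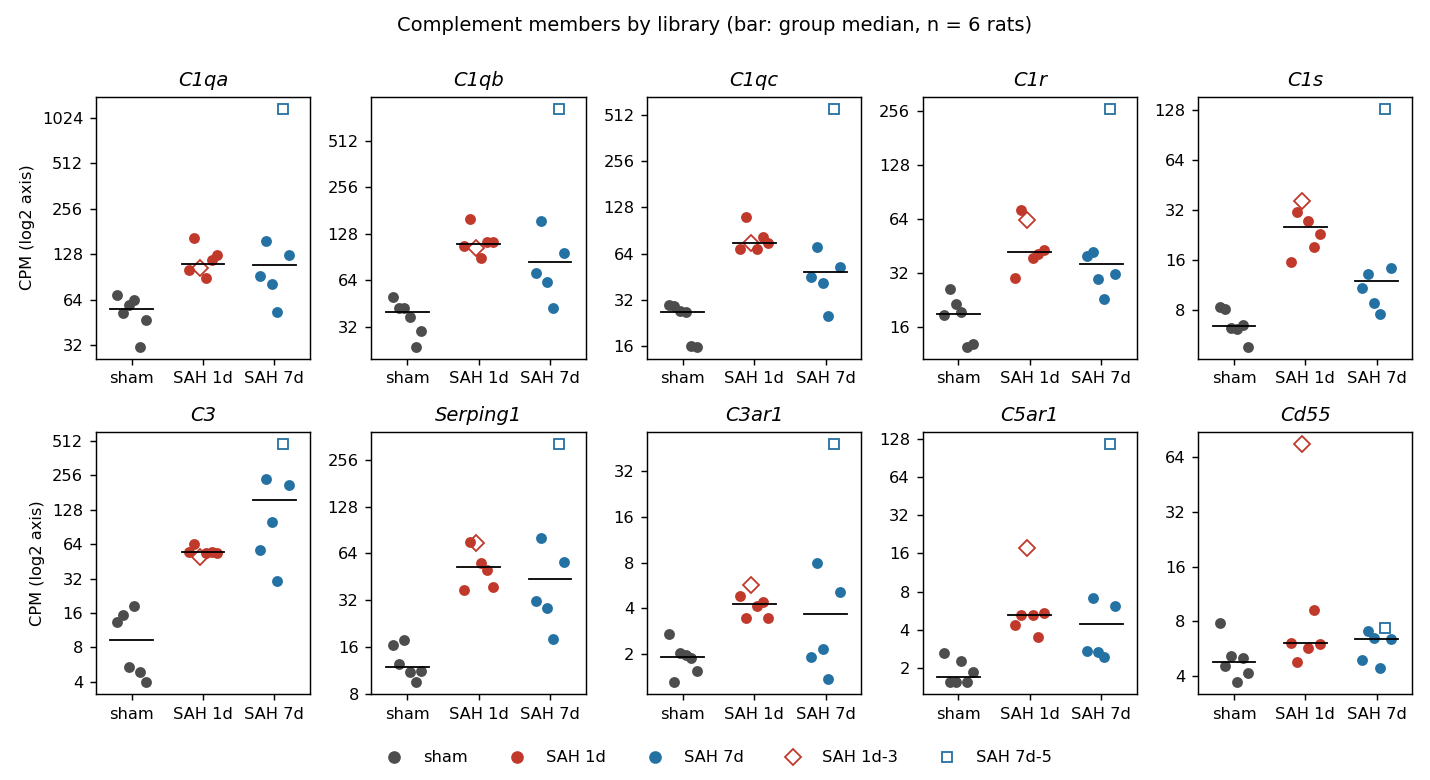
Expression of each of the 10 genes as CPM on a log2 axis, 1 point per rat, with a bar at the group median; the open diamond is SAH 1d-3 and the open square SAH 7d-5. For 9 genes every SAH 1d point lies above every sham point, while the SAH 7d points spread widely, with SAH 7d-5 on top of each panel's SAH 7d group.

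At SAH 1d, 9 of the 10 genes were higher than in sham, Cd55 being the exception. Values are CPM, a count relative to the total count of its library, with libraries scaled by the trimmed mean of M values, given as the lowest, the median and the highest of the 6 rats. A gene is called changed at an adjusted p under 0.05 in the edgeR quasi-likelihood test, and a DEG if its log2 fold change is also at least 1 in size. The SE given beside an edgeR log2 fold change was worked back from the F statistic of that test. All 9 were DEGs, where 14.9% of all tested genes were changed upwards and 5.57% were DEGs upwards. For the same 9, the lowest SAH 1d library was above the highest sham library, which held for 7.89% of all tested genes. The median log2 fold change of the 10 genes was 1.79, and that of all tested genes 0.0086. Without SAH 1d-3 these medians were 1.48 and -0.0018.

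C1qa, the A chain of C1q, was at 31.3, 55.9 and 68.3 CPM in sham and at 89.4, 111 and 165 CPM in SAH 1d. It rose 2.18-fold, a log2 fold change of 1.13 ± 0.18 (SE, 6 against 6 rats; adjusted p = 0.00125). C1qb, the B chain, was at 23.8, 39.7 and 49.7 CPM in sham and at 89.6, 110 and 160 CPM in SAH 1d. No SAH 1d library of either chain fell into the sham range. C1qb rose 3.04-fold (log2 1.61 ± 0.18, adjusted p = 7.83e-05). The C chain, C1qc, was at 15.96, 26.9 and 29.6 CPM in sham and at 69.0, 75.4 and 111 CPM in SAH 1d, 3.33-fold higher (log2 1.73 ± 0.18, adjusted p = 6.48e-05). All 3 chains thus rose, C1qa by the smallest factor.

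The proteases that C1q carries rose as well. C1r had 12.5, 19.1 and 26.1 CPM in sham and 30.2, 42.0 and 71.7 CPM in SAH 1d (2.59-fold, log2 1.37 ± 0.23, adjusted p = 0.00148). C1s had 4.86, 6.42 and 8.36 CPM in sham and 15.7, 25.3 and 36.3 CPM in SAH 1d (3.78-fold, log2 1.92 ± 0.20, adjusted p = 6.59e-05). Their inhibitor Serping1 had 9.53, 11.9 and 17.7 CPM in sham and 37.3, 52.5 and 75.5 CPM in SAH 1d (4.22-fold, log2 2.08 ± 0.21, adjusted p = 5.60e-05). For each of the 3, enzymes and inhibitor alike, no SAH 1d library overlapped with sham.

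C3, the substrate on which all complement pathways meet, had the largest fold change of the 10 genes. It was at 3.997, 9.34 and 18.5 CPM in sham and at 49.2, 54.2 and 64.2 CPM in SAH 1d, 5.38-fold higher (log2 2.43 ± 0.35, adjusted p = 0.000544). The 6 SAH 1d libraries lay within 1.30-fold of each other, the sham libraries within 4.62-fold.

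Both anaphylatoxin receptors were low in sham. C3ar1, the receptor for C3a, went from 1.31, 1.93 and 2.70 CPM in sham to 3.45, 4.28 and 5.68 CPM in SAH 1d (2.27-fold, log2 1.18 ± 0.20, adjusted p = 0.00137). C5ar1, the receptor for C5a, went from 1.55, 1.70 and 2.63 CPM to 3.53, 5.27 and 17.7 CPM (3.64-fold, log2 1.87 ± 0.37, adjusted p = 0.00373). The highest C5ar1 value came from SAH 1d-3, without which the fold was 2.501 (log2 1.32 ± 0.19, adjusted p = 0.000254). For Cd55, the only membrane regulator among the 10, sham libraries had 3.71, 4.78 and 7.79 CPM and SAH 1d libraries 4.802, 6.06 and 75.8 CPM. Its 2 groups overlapped, and its log2 fold change of 1.84 ± 0.68 had an adjusted p of 0.0618. Without SAH 1d-3, the library at 75.8 CPM, the log2 fold change of Cd55 was 0.33 ± 0.21 (adjusted p = 0.251).

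Without SAH 1d-3 the count of changed genes was again 9 of 10, where 15.4% of all tested genes were changed upwards. When all 18 libraries entered 1 edgeR fit, which carries the spread of the SAH 7d group into this comparison, 4 genes were called (C1s, C3, Serping1 and Cd55; 8.18% of all tested genes upwards), and the other 6 had adjusted p from 0.0611 (C1qc) to 0.234 (C3ar1).

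At SAH 7d, all 10 fold changes against the same sham libraries were above 0, but edgeR called 0 of 10, as it called 0.0% of all tested genes. At an unadjusted p under 0.05 there were 9 of 10, beside 15.4% of all tested genes, DESeq2 called 4 of 10 (2.2% of all tested genes upwards), and limma voom with sample weights called 0 (0.0108%). The rats of this group differed widely. C3 was at 30.4, 154 and 479 CPM, against at most 18.5 CPM in sham (log2 fold change 4.18 ± 0.69, adjusted p = 0.149). Serping1 was at 17.97, 44.0 and 324 CPM, against at most 17.7 CPM in sham (log2 2.78 ± 0.65, adjusted p = 0.214). C3 and Serping1 were the 2 genes of 10 whose SAH 7d libraries all lay above all sham libraries, which held for 0.797% of all tested genes.

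The C1q chains overlapped with sham at SAH 7d. C1qa was at 53.2, 109 and 1179 CPM, C1qb at 42.4, 83.9 and 826 CPM and C1qc at 25.3, 48.8 and 560 CPM. In each of the 3 the lowest SAH 7d library, SAH 7d-4, lay below the highest sham library, and the highest, SAH 7d-5, lay far above the rest. For each chain, and for C1r and C1s, 5 of the 6 SAH 7d libraries lay above all sham libraries. Their log2 fold changes were 2.40 ± 0.72, 2.48 ± 0.68 and 2.46 ± 0.72, with adjusted p of 0.215, 0.214 and 0.214. C1r was at 23.1, 35.8 and 264 CPM (log2 1.96 ± 0.59, adjusted p = 0.215). C1s was at 7.67, 12.0 and 130 CPM (log2 2.20 ± 0.70, adjusted p = 0.224).

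Among the receptors at SAH 7d, C3ar1 was at 1.37, 3.66 and 48.4 CPM (log2 2.55 ± 0.82, adjusted p = 0.227) and C5ar1 at 2.46, 4.46 and 117 CPM (log2 3.60 ± 1.02, adjusted p = 0.214). Cd55, at 4.45, 6.43 and 7.35 CPM, was the member with the narrowest SAH 7d range (log2 0.27 ± 0.19, adjusted p = 0.469). Of the 6 SAH 7d libraries, 5 lay above all sham libraries for C5ar1, 3 for C3ar1 and 0 for Cd55.

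Leaving out SAH 7d-5 lowered all 10 log2 fold changes, the lowest to 0.22 (Cd55), and left C3 at 3.64 ± 0.57 (12.5-fold, adjusted p = 0.0948), Serping1 at 1.73 ± 0.33 (adjusted p = 0.106) and C1qb at 1.20 ± 0.29 (adjusted p = 0.118). Without that library edgeR again called 0 of 10, with 9 at an unadjusted p under 0.05 (12.6% of all tested genes), whereas DESeq2 called 8 of 10 (2.33% of all tested genes upwards), all but C3ar1 and Cd55. With all libraries DESeq2 called C1qb, C3, C3ar1 and Serping1 and gave no adjusted p for C1qa, C1qc, C1r, C1s and C5ar1. The fit of all 18 libraries called C3 alone (adjusted p = 0.00865; 0.0434% of all tested genes upwards).

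SAH 7d was then set against SAH 1d. The 3 comparisons share libraries, so their values are given side by side and are not independent. edgeR called 0 of 10, where 0.282% of all tested genes were changed upwards and 1.08% downwards. At an unadjusted p under 0.05 there were 2 of 10, beside 14.7% of all tested genes. DESeq2 called C3 (adjusted p = 0.0125, beside 1.99% of all tested genes upwards) and gave no adjusted p for 6 of the 10. Limma voom with sample weights called C1qc and C1s as lower (8.37% downwards). C3 had a log2 fold change of 1.76 ± 0.53 (adjusted p = 0.132), and 4 of the 6 SAH 7d libraries lay above the highest SAH 1d value of 64.2 CPM.

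For 8 genes the direction was not stable. With all libraries in the edgeR fit, C1qa, C1qb, C1qc, C1r, C1s, Serping1, C3ar1 and C5ar1 had log2 fold changes from 0.29 (C1s) to 1.74 (C5ar1). Without SAH 7d-5 and SAH 1d-3, all 8 were below 0, and with all libraries limma voom also had all 8 below 0. Cd55 was below 0 in both edgeR fits (log2 -1.57 ± 0.68 and -0.13 ± 0.19, adjusted p = 0.31 and 0.709). Without these 2 libraries, C1s fell by 1.09 ± 0.21 on the log2 scale (adjusted p = 0.00624) and C1qc by 0.80 ± 0.22 (adjusted p = 0.0351). In that fit 7.49% of all tested genes were changed downwards. SAH 7d-5 was the highest SAH 7d library for all 10 genes, so leaving it out took away the top SAH 7d value of each. The adjusted p of that fit do not account for this choice. Only C1s had every SAH 7d library below every SAH 1d library in that setting (6.67% of all tested genes). C3 stayed above 0, at 1.16 ± 0.44 (adjusted p = 0.104). The plot of log2 fold changes sets both analyses side by side.

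**Figure D2:**
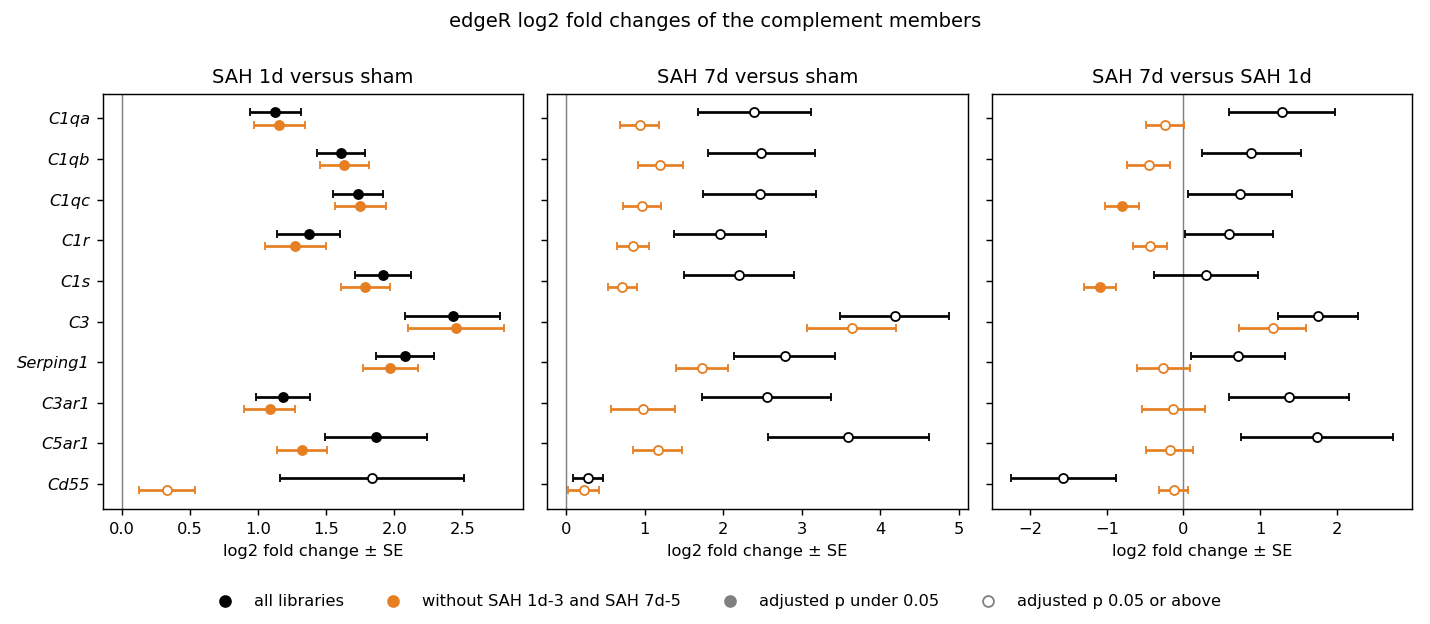
log2 fold changes ± SE from edgeR for the 10 genes in the 3 comparisons, with all libraries (black) and with SAH 7d-5 and SAH 1d-3 left out (orange); filled points have an adjusted p under 0.05, and each panel has its own axis. At SAH 1d the black and orange points nearly coincide except for C5ar1 and Cd55, and in SAH 7d versus SAH 1d only C3 stays above 0 in both.

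Ratios between 2 genes within a library do not depend on the scaling between libraries, so they show whether the members moved by unequal amounts. The groups were compared for 6 pairs in 3 comparisons, 18 tests in all, each by an exact two-sided permutation test over the 6 against 6 rats (smallest possible p 0.00216), with p adjusted over the 18. The ratio of C3 to C1qb, on the log2 scale of CPM, was -2.08 ± 0.78 (SD, n = 6) in sham, -1.04 ± 0.19 in SAH 1d and 0.14 ± 0.76 in SAH 7d. C3 thus gained on C1qb at each time: by 1.05 from sham to SAH 1d (adjusted exact p = 0.0278), by 1.17 from SAH 1d to SAH 7d (adjusted exact p = 0.026) and by 2.22 from sham to SAH 7d (adjusted exact p = 0.0195). In the last, the lowest SAH 7d library, at -0.79, lay above the highest sham library, at -1.001.

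Within C1q itself, C1qa lost ground to C1qb at SAH 1d. Their log2 ratio was 0.51 ± 0.17 in sham and 0.03 ± 0.08 in SAH 1d, a difference of -0.48 with no overlap between the groups (adjusted exact p = 0.0195). At SAH 7d it was 0.33 ± 0.17, higher than in SAH 1d by 0.30 (adjusted exact p = 0.0278). SAH 7d-2, at 0.01, was the only SAH 7d library inside the SAH 1d range. The ratio of C1qc to C1qb was -0.65 ± 0.17, -0.51 ± 0.10 and -0.76 ± 0.22 in the 3 groups, and differed between SAH 1d and SAH 7d by -0.26 (adjusted exact p = 0.0292).

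Of the proteases, C1r lost ground to C1s at SAH 1d, with log2 ratios of 1.43 ± 0.33 in sham, 0.90 ± 0.25 in SAH 1d and 1.503 ± 0.34 in SAH 7d. The difference was -0.52 at SAH 1d (adjusted exact p = 0.0312) and 0.60 from SAH 1d to SAH 7d (adjusted exact p = 0.0278). The inhibitor gained on C1s by SAH 7d. The log2 ratio of Serping1 to C1s was 0.94 ± 0.36 in sham, 1.12 ± 0.23 in SAH 1d (difference 0.18, adjusted exact p = 0.382) and 1.72 ± 0.51 in SAH 7d. At SAH 7d it was higher by 0.78 than in sham (adjusted exact p = 0.0278) and by 0.61 than in SAH 1d (adjusted exact p = 0.0303). The receptors C5ar1 and C3ar1 had a ratio of 0.00 ± 0.27, 0.46 ± 0.69 and 0.50 ± 0.50, and none of its 3 tests passed (adjusted exact p 0.0921 to 0.922).

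Of the 10 ratio differences that passed, 4 also passed with any 1 library left out: C1qa to C1qb at SAH 1d, Serping1 to C1s at SAH 7d against sham, and C3 to C1qb at SAH 7d against either group. The other 6 were near the threshold. Leaving out any library also leaves fewer splits and a larger smallest possible p, so a miss cannot be put down to that rat alone. C3 to C1qb at SAH 1d had an adjusted exact p of 0.0519 without SAH 1d-3 and 0.0557 without SAH 1d-4. From SAH 1d to SAH 7d, C1r to C1s (0.0557 and 0.0557), C1qa to C1qb (0.0519 and 0.0557) and C1qc to C1qb (0.0584 and 0.0584) also missed it without SAH 1d-3 or SAH 1d-4, the last also without SAH 7d-6 (0.0519). Serping1 to C1s from SAH 1d to SAH 7d missed it without any of SAH 1d-3, SAH 1d-4, SAH 1d-6, SAH 7d-1, SAH 7d-3 and SAH 7d-6 (0.0545 to 0.0606), and C1r to C1s at SAH 1d without any of sham-2, sham-3, sham-4, sham-6, SAH 1d-3, SAH 1d-4 and SAH 1d-6 (0.0545 to 0.0623). The sign was the same in all of these. C5ar1 to C3ar1 at SAH 7d against sham passed without SAH 7d-2 (difference 0.63, adjusted exact p = 0.0195).

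**Figure D3:**
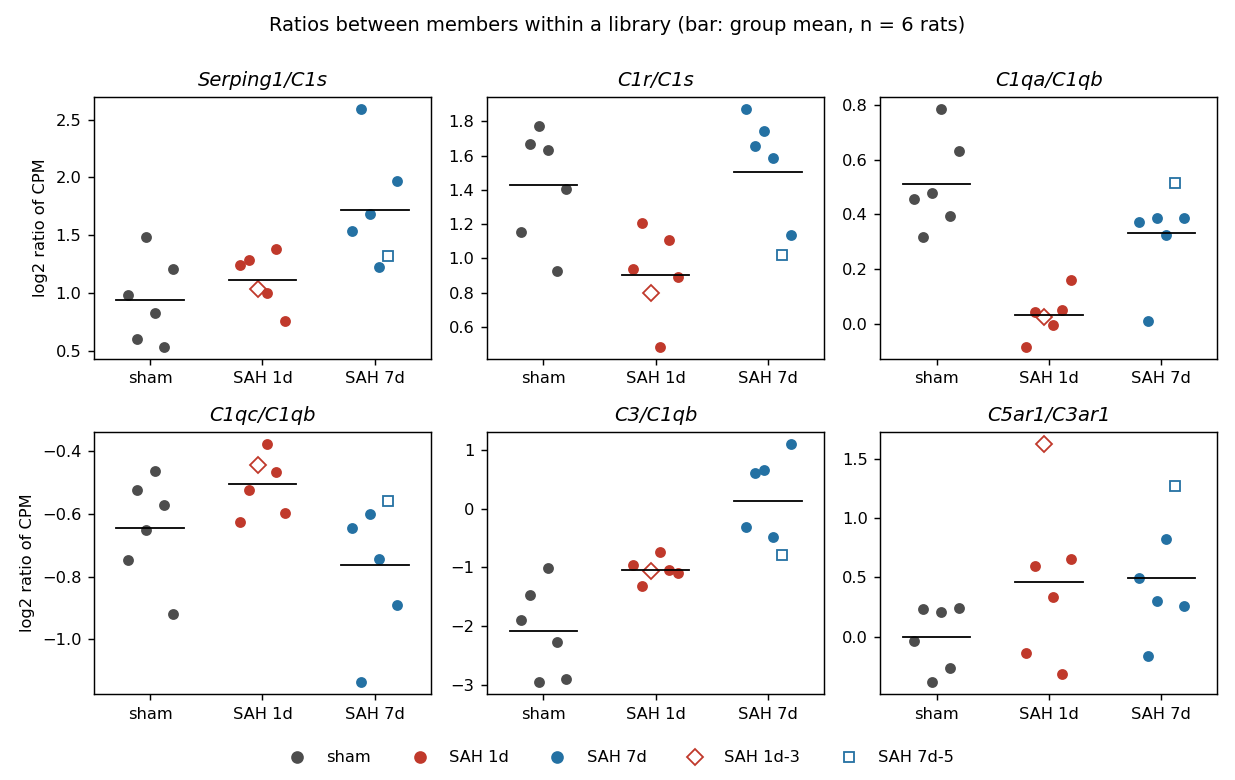
log2 ratio of CPM for 6 pairs of genes, 1 point per rat, with a bar at the group mean; open symbols mark SAH 7d-5 and SAH 1d-3. The C1qa to C1qb ratio of SAH 1d (-0.08 to 0.16) lies wholly below sham, and the C3 to C1qb ratio of SAH 7d wholly above sham.

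Levels can be compared between genes per transcript length, as FPKM (fragments per kilobase of transcript, relative to the mapped reads of the library). In sham the C1q chains led, with median FPKM of 50.0 (C1qa), 34.1 (C1qb) and 23.0 (C1qc), and in all 6 rats each exceeded the next. Serping1 (5.91) and C1r (6.25) followed and were in no fixed order, Serping1 being higher in 4 of 6 rats. C1s had 2.15, C3 1.60 and Cd55 1.46, and C3 exceeded Cd55 in 3 of 6. The receptors were lowest, at 0.811 (C5ar1) and 0.899 (C3ar1).

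At SAH 1d the FPKM of C1qa and C1qb came close, with medians of 104 and 101, and C1qa was the higher in 5 of 6 rats. C3 moved above C1s, at 10.7 against 8.77 FPKM and in 5 of 6 rats. At SAH 7d the median FPKM of C3 was 28.8, next to C1qc at 42.5 and Serping1 at 22.1, and Serping1 exceeded C3 in 3 of 6 rats. The lowest place at SAH 7d was shared by C3ar1 (1.72) and Cd55 (1.98), of which C3ar1 was higher in 3 of 6.

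**Figure D4:**
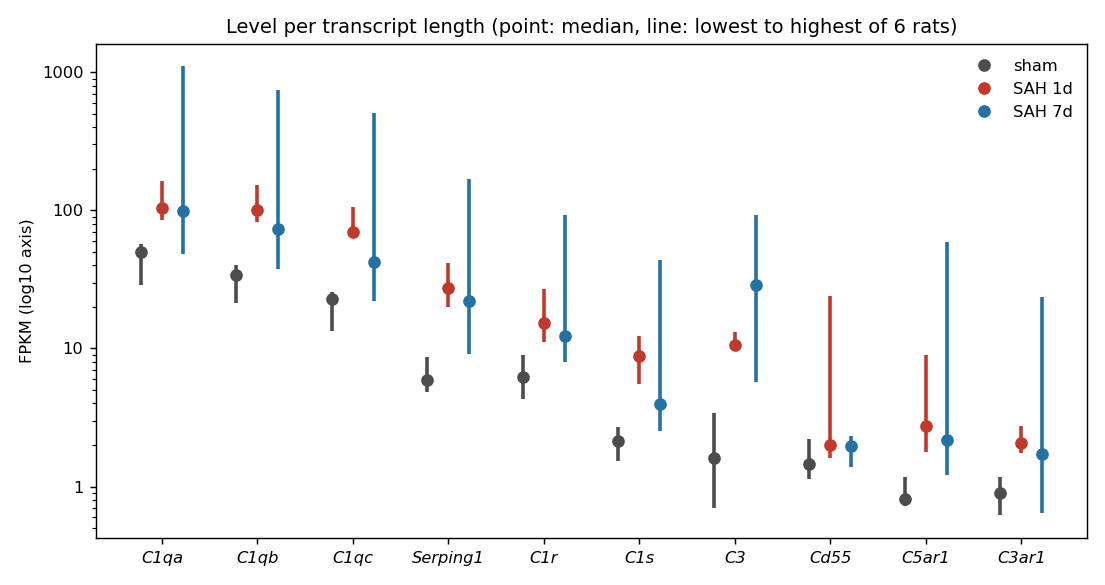
Level per transcript length of the 10 genes in FPKM on a log10 axis, ordered as in sham; points are medians and lines run from the lowest to the highest of 6 rats. C1qa, C1qb and C1qc are the highest in sham, and C3 has the largest upward shift of its median, from 1.60 in sham to 28.8 in SAH 7d.

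Beyond the 10, a list of 52 other complement genes was examined, of which 50 were in the table and 38 could be tested, in 39 rows because Cfb has 2 gene identifiers. At SAH 1d against sham 15 rose and 1 fell, 12 of the 15 as DEGs, beside 14.9% and 10.5% of all tested genes. The median log2 fold change of the list was 0.40. Of 10 tested genes of classical and lectin activation 5 rose, and of the 4 rows of the alternative pathway 1. C2, cut by C1s, went from 16.4 to 42.1 CPM on average (log2 1.36 ± 0.30, adjusted p = 0.00611), C1rl, a C1r-like protease, rose by 1.63 ± 0.26 (adjusted p = 0.00114), and Colec11, a lectin that starts the lectin pathway, rose by 1.73 ± 0.47 (adjusted p = 0.0171). C4b, Masp1, Fcna, Fcnb and Colec12, and Cfd and Cfp of the alternative pathway, did not pass the test (adjusted p 0.053 for Fcnb to 0.904 for Fcna). C4a, the other target of C1s, rose by 1.31 ± 0.37 (adjusted p = 0.0216), but C4a and C4b are near-identical and the split of reads between them is uncertain. Of the 2 rows of Cfb, factor B of the alternative pathway, ENSRNOG00000000419 rose (log2 1.99 ± 0.51, adjusted p = 0.0139), and the other had 0.78 ± 0.52 (adjusted p = 0.292).

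Complement receptor integrins rose most among the surface proteins at SAH 1d. Itgam, the alpha chain of complement receptor 3, was at 6.97 to 12.1 CPM in sham and at 40.4 to 98.9 CPM in SAH 1d (log2 2.72 ± 0.21, adjusted p = 9.90e-06), and its partner Itgb2 rose by 2.18 ± 0.21 (adjusted p = 3.38e-05). Itgax, the alpha chain of complement receptor 4, was at 0 to 0.276 CPM in sham and at 3.47 to 38.2 CPM in SAH 1d (adjusted p = 0.000102). Of the C1q-binding proteins, Ptx3, a pentraxin, was at 0 to 0.466 CPM in sham and at 5.20 to 112 CPM in SAH 1d (adjusted p = 0.000213), and Scarf1, a scavenger receptor, rose by 1.89 ± 0.30 (adjusted p = 0.00107). In the terminal pathway, which builds the membrane attack complex, C6 rose by 3.32 ± 0.74 (adjusted p = 0.00687; 2.12 ± 0.43 without SAH 1d-3) and C7 by 1.11 ± 0.37 (adjusted p = 0.042). SAH 1d-3 was the highest SAH 1d library for Itgam, Itgax, Itgb2, Ptx3, Scarf1, C6, C1rl and the first Cfb row, and all 12 DEGs were called as changed without it.

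Of 6 tested membrane regulators beside Cd55, 1 was changed at SAH 1d, Sez6, which fell (log2 -0.67 ± 0.16, adjusted p = 0.00816), and of 5 soluble regulators 1 rose, Clu (0.90 ± 0.09, adjusted p = 6.30e-05). Masp2, a protease of the lectin pathway (0.41 ± 0.11, adjusted p = 0.0197), and Megf10, a C1q-binding phagocytic receptor (0.39 ± 0.12, adjusted p = 0.0338), rose as well. These 4 stayed under the fold needed for a DEG. Over all tested genes, 14.9% rose and 10.5% fell at SAH 1d. At SAH 7d against sham, edgeR called 0 of the 38, with 20 of the 39 rows at an unadjusted p under 0.05 (15.4% of all tested genes). DESeq2 called 9 (2.2% of all tested genes upwards and 0.287% downwards) and limma voom 0. From SAH 1d to SAH 7d 3 rows fell, beside 1.08% of all tested genes: Ptx3 by 4.76 ± 0.97 (adjusted p = 0.034), Scarf1 by 1.72 ± 0.35 (adjusted p = 0.033) and the first Cfb row by 2.37 ± 0.44 (adjusted p = 0.0221). The count of 3 became 0 with the replicate number as a block, and also without any of SAH 1d-2, SAH 7d-1, SAH 7d-2, SAH 7d-3 and SAH 7d-6.

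Markers of cell types were read beside these results, as the mean log2 CPM of each list. All tested microglial markers had counts in every group, Tmem119 at 10.6 to 40.1 CPM and P2ry12 at 12.8 to 33.7 CPM in sham, while Siglech had no count in sham. At SAH 1d the microglial score (7 of 8 listed genes) was 4.45 to 5.16, against 4.70 to 5.60 in sham. P2ry12 fell (log2 -1.19, adjusted p = 0.0251), the only 1 of the 7 that passed the test, and Aif1 had a log2 fold change of 0.56 (adjusted p = 0.0599). At SAH 7d the microglial score was 5.03 to 7.73. The difference between log2 CPM of C1qb and this score was 0.14 ± 0.30 (SD, n = 6) in sham, 1.85 ± 0.30 in SAH 1d and 0.75 ± 0.61 in SAH 7d, with the lowest SAH 1d library (1.56) above the highest sham library (0.52). No test was made of it.

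**Figure D5:**
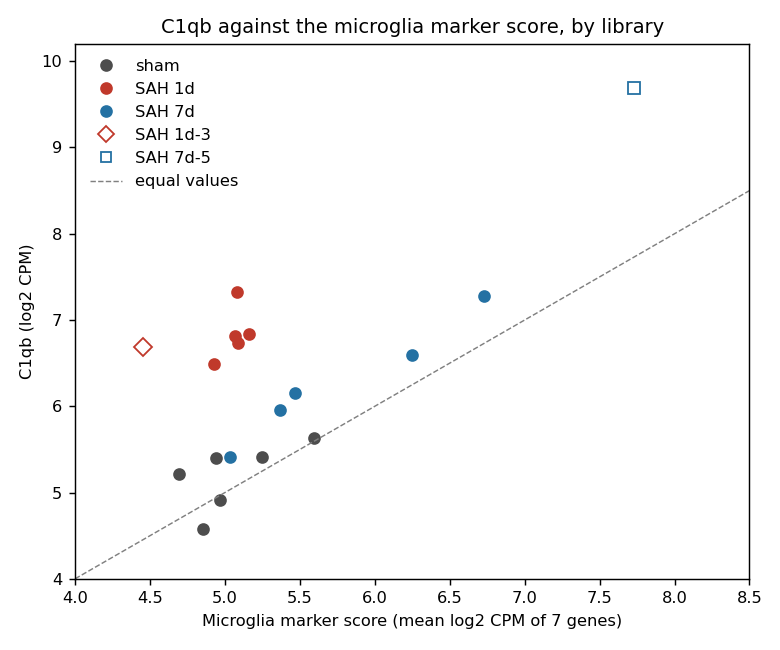
log2 CPM of C1qb against the microglia marker score (mean log2 CPM of 7 genes), 1 point per library, with a dashed line where both are equal. The 6 SAH 1d points stand 1.56 to 2.24 above the line at microglial scores within or below the sham range, and SAH 7d-5 is the highest on both axes.

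Other lists moved with the members, and their part in the results was not tested. The monocyte and macrophage score (6 of 8 listed genes) was 0.83 to 1.46 in sham, 1.88 to 3.07 in SAH 1d and 1.58 to 4.70 in SAH 7d, without overlap between sham and either SAH group; 3 of its 6 genes rose at SAH 1d, among them Msr1 (log2 4.34, adjusted p = 0.000493) and Cd163 (log2 1.23, adjusted p = 0.00317). The neutrophil score rested on 2 of 7 listed genes, both higher at SAH 1d, and was -1.38 to 1.11 in sham and 1.06 to 4.66 in SAH 1d, with SAH 1d-3 the highest. Among 6 astrocyte genes Gfap rose (log2 3.003) and Aldh1l1 fell (log2 -0.85), and all 6 neuronal genes fell at SAH 1d. Choroid plexus genes (2 of 6 higher) were led by SAH 1d-4 and SAH 1d-6, at scores of 5.02 and 5.54 against at most 2.03 in every other library. Of the remaining lists at SAH 1d, 2 of 5 endothelial, 1 of 6 meningeal fibroblast and 1 of 3 T cell genes rose, and 1 of 2 hepatocyte genes fell. Over all tested genes 14.9% rose and 10.5% fell. The T cell gene was Cd8a, at only 0.211 to 0.948 CPM in SAH 1d, and the hepatocyte gene Serpina1, at 0.322 to 0.664 CPM. Adjusted p ran from 0.166 to 0.968 over the 6 oligodendrocyte genes and from 0.141 to 0.793 over the 5 red cell genes.

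In SAH 7d-5 the meningeal fibroblast score was 9.09, against 5.22 to 6.04 in the other SAH 7d libraries. Its microglial and macrophage scores were the highest of the group as well. Its neuron score was the lowest, at 8.05 against 9.34 to 9.78, as was its red cell score, at -1.89 against 0.077 to 1.81. The part of these shifts in the values of the members was not tested. The T cell score was 3.49, against -1.48 to 0.12, with Cd8a at 243 CPM, while over the SAH 7d group Lck reached at most 2.78 CPM and Cd3e at most 1.997 CPM.

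The profiles of the members over the 18 libraries were described by Spearman's rho of log2 CPM, without a test, since the points share groups and depth. C1qa and C1qb had the highest rho among the 10, 0.971 over 18 libraries and 0.971 over the 16 that leave out SAH 7d-5 and SAH 1d-3. The lowest was 0.439 for C3 and Cd55 over 18 libraries, and 0.347 for C1r and Cd55 over 16. Outside the 10, the genes nearest to C1qa were Fuca1 and Necap2 (both 0.973) and Dnase2 (0.965), the first and last of which encode lysosomal enzymes. Nearest to C1qb were Phyhd1, Fcgr3a and Tapbpl (0.953 each), and to C1qc Ripk3 (0.977), Mvp (0.975) and Rpl3 (0.971). C1r had Rpl11 (0.963), Psme1 (0.961) and Ch25h (0.959), C1s had Plin2 (0.979), Mvp (0.973) and Bak1 (0.969), and Serping1 had Lyn (0.975), Shc1 (0.971) and Cybc1 (0.971). C3ar1 had Myo1f (0.961), Hcls1 (0.955) and Sowahc (0.955). Nearest to C3 were Pld4 (0.948), Fgd2 (0.928) and Tent5c (0.924), and nearest to C5ar1 were Il18 (0.981), Irf8 (0.979), a transcription factor of the myeloid lineage, and Ppp1r18 (0.979). Nearest to Cd55 were Suco (0.907), Arf4 (0.878) and Fndc3b (0.870).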

How the data were processed

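RNA of 18 rat cortex libraries was sequenced, 6 each of sham, SAH 1d and SAH 7d, and libraries were grouped by the descriptions that equal their column names. The authors removed adapters and reads of low quality, aligned the rest to the rat Rnor_6.0 genome and deposited whole-number counts per gene, without normalization. The authors also deposited FPKM values from the same alignments. The submitters' processing notes list fastp, HISAT2 and DESeq2 1.16.1, and a mouse build that is at odds with the rat gene identifiers; the counting program is not given in the sources used here. Replicates were not pooled. How read pairs were counted is not known, so no counting interval is given and errors are those between rats. Of 30735 genes, 8685 lie outside the annotation.

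Counts were tested with edgeR 4.0.16 in R 4.3.3 (filterByExpr on all 18 libraries, TMM, quasi-likelihood F test, two-sided, 12 libraries per comparison, Benjamini-Hochberg over 18444 genes). A gene was changed at an adjusted p under 0.05, and a DEG if its log2 fold change was also at least 1 in size. The scripts were tested on simulated data. The SE of an edgeR log2 fold change is its size divided by the square root of the F statistic. log2 CPM used a prior count of 2. Pair ratios, marker scores and FPKM levels were computed with scipy 1.17.1, pandas 2.3.3 and numpy 2.4.6 under Python 3.11.15, with matplotlib 3.10.9 for the figures. FPKM levels were ordered by the mean log2 FPKM of a group. Sequences are RefSeq promoters of GRCr8.

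The 10 members, the list of 52 other complement genes in 7 roles and the 12 marker lists (76 genes: microglia, monocyte and macrophage, neutrophil, T cell, astrocyte, endothelial cell, meningeal fibroblast, choroid plexus, neuron, oligodendrocyte, red cell and hepatocyte) were chosen with earlier results of these data known. Named are the members, other complement genes that are DEGs in any comparison, and for each member up to 3 genes of nearest profile; Clu, Sez6, Masp2 and Megf10 were named after their values were seen. Alternatives were DESeq2 1.42.0 (Wald test and size factors), limma 3.58.1 (voom with sample quality weights, and log2(FPKM + 1) or log2(FPKM + 0.1) with a mean FPKM of at least 0.5 or no filter), all 18 libraries in 1 fit, the replicate number as a block, no filter or a minimum of 10 counts in every library, and each library left out. DESeq2 and voom without SAH 7d-5 were chosen after seeing the data. The values of 1 marker gene are not reported here.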

Additional observations from a re-analysis of the deposited data

Results flagged for a closer look

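In 48 groups of 6 libraries, those of the 10 genes on log2 CPM and of the 6 ratios, 8 had 1 library farther from the others than Dixon's test allows (critical value 0.625); chance marks about 1 in 20 groups. SAH 7d-5 was that library for C1qa (1179 CPM), C1qc (560 CPM), C1r (264 CPM), C1s (130 CPM) and C5ar1 (117 CPM). SAH 1d-3 was that library for C5ar1 (17.7 CPM) and Cd55 (75.8 CPM), and SAH 1d-2 for C1qc (111 CPM).

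The ratios of 5 pairs differed between SAH 7d and SAH 1d by the exact permutation test (adjusted exact p 0.026 to 0.0303). Of these, only C3 to C1qb also passed with any 1 library left out. On the log2 scale, the differences (SAH 7d minus SAH 1d) were 1.17 for C3 to C1qb, 0.61 for Serping1 to C1s, 0.60 for C1r to C1s, 0.30 for C1qa to C1qb and -0.26 for C1qc to C1qb.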

How the results depend on the processing

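Every setting below gave a positive log2 fold change for all 10 genes at SAH 1d and at SAH 7d against sham. At SAH 1d, 9 of 10 were changed in each setting except the fit of all 18 libraries (4 changed, 4 DEGs; 10 other complement genes) and the fit without SAH 1d-2, which also called Cd55. With 1 library left out, the count ran from 9 to 10, and for the other complement genes from 14 to 17. On the scale of log2(FPKM + 1), 1 ratio passed at SAH 1d. limma on log2(FPKM + 0.1) shifts the median of all genes by 0.11 at SAH 1d.

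At SAH 7d against sham, where edgeR called 0, DESeq2 called 4 members (4 DEGs) and 9 other complement genes, or 8 (4 DEGs) and 5 without SAH 7d-5, and the fit of all 18 libraries 1 (1 DEG). With 1 library left out edgeR called 0 to 0 members. From SAH 1d to SAH 7d the count of members went from 0 to 1 with DESeq2 (1 DEG), to 2 with limma voom and to 2 (1 DEG) with SAH 7d-5 and SAH 1d-3 left out. The 3 other complement genes became 5, 9 and 7 there, the last with 1 risen and 6 fallen. Of all 18444 tested genes, DESeq2 called 367 upwards and 645 downwards, and limma voom 1175 and 1543. Without SAH 7d-5 and SAH 1d-3, edgeR called 1130 upwards and 1382 downwards. DESeq2 gave no adjusted p for 6 of the 10 members in this comparison. Leaving out 1 library gave 0 to 2 members, 0 to 1 DEGs and 0 to 5 other complement genes, with 5 without SAH 7d-5, 1 without SAH 1d-4 or SAH 7d-4 and 0 without SAH 1d-2, SAH 7d-1, SAH 7d-2, SAH 7d-3 or SAH 7d-6. Ratios that passed numbered 1 to 3 at SAH 1d, 2 to 3 at SAH 7d against sham and 1 to 5 from SAH 1d to SAH 7d, and 3 in the last without both libraries apart.

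For SAH 7d against SAH 1d, log2 fold changes that were above 0 turned negative in these settings, and the cause was not tested. Limma voom gave -0.28 (C1qa), -0.56 (C1qb), -0.81 (C1qc), -0.36 (C1r), -0.9996 (C1s), -0.35 (Serping1), -0.43 (C3ar1) and -0.32 (C5ar1). The replicate block gave -0.083 (C1qb), -0.36 (C1qc), -0.090 (C1r), -0.75 (C1s), -0.055 (Serping1) and -0.096 (C5ar1). Limma on log2(FPKM + 1), with and without the filter, gave -0.029 (C1qb), -0.28 (C1qc), -0.041 (C1r), -0.52 (C1s) and -0.036 (Serping1). Limma on log2(FPKM + 0.1) gave -0.033 (C1qb), -0.29 (C1qc), -0.059 (C1r), -0.65 (C1s) and -0.053 (Serping1). edgeR with SAH 7d-5 and SAH 1d-3 left out gave -0.24 (C1qa), -0.46 (C1qb), -0.80 (C1qc), -0.44 (C1r), -1.09 (C1s), -0.26 (Serping1), -0.13 (C3ar1) and -0.18 (C5ar1). With 1 library left out, the values ran from -0.21 to 1.497 for C1qa, -0.43 to 1.10 for C1qb, -0.79 to 0.96 for C1qc, -0.54 to 0.78 for C1r, -1.22 to 0.49 for C1s, -0.37 to 0.93 for Serping1, -0.23 to 1.61 for C3ar1 and -0.72 to 2.29 for C5ar1, the lowest in each case without SAH 7d-5.

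Libraries of different groups share only a replicate number: correlations of same-numbered deviations ran from -0.25 to 0.20. The best match was the library of the same number only for SAH 7d-6 against sham and SAH 7d-4 against SAH 1d. With the number as a replicate block the count of changed members was 9, 0 and 0 in the 3 comparisons, as without it, and that of other complement genes from SAH 1d to SAH 7d 0.

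Total counts differed by less than 1.5 times between libraries, and the receptors, at a few CPM in sham, rest on the fewest counts.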
